A study of Arabidopsis thaliana with 4 samples.

Results

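The genes described here encode proteins that cap the ends of Arabidopsis thaliana chromosomes or extend them: STN1 (AT1G07130), CTC1 (AT4G09680), TEN1 (AT1G56260), POT1a (AT2G05210), POT1b (AT5G06310), KU70 (AT1G16970), KU80 (AT1G48050), TERT (AT5G16850), TRP1 (AT5G59430) and TBP1 (AT5G13820). These 10 genes were chosen by locus tag out of 27444 protein-coding genes on the 5 nuclear chromosomes, and all 10 names stood in the gene table as a symbol or a synonym (TEN1 under the symbol MDO1). The measurement was chromatin immunoprecipitation followed by sequencing for TRB1, a DNA-binding protein of the Myb type, in seedlings aged 14 days. In the first approach, chromatin of homozygous TRB1pro:TRB1-GFP plants was treated with the GFP-Trap A matrix. These plants make TRB1 fused to green fluorescent protein from the TRB1 promoter. Chromatin of wild-type (Wt) plants, treated with the same matrix, served as the control. In the second approach, chromatin of Wt plants was treated with the antibody anti-TRB1 (5.2), and Wt chromatin without that antibody was the control. The labels do not say whether the TRB1-GFP plants also made TRB1 without the tag.

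Telomeres of most plants are arrays of a short repeat, and the repeat also occurs in the promoters of many genes, where it is known as the telo box. CST, the complex of CTC1, STN1 and TEN1, protects the single-stranded end of the chromosome and helps DNA polymerase alpha to fill in the complementary strand. Telomerase, whose catalytic subunit is TERT, adds repeats to that end. TRB1 is known to bind telomeric repeats and, in Arabidopsis, to interact with TERT. The question addressed here is whether TRB1 also lay on the chromatin of the genes that encode these proteins, which is separate from its place at telomeres.

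The values were 4 peak lists with 1 library behind each group, so no spread between plants can be given and no test between groups was made. The replicate 1 list held 3975 peaks and the replicate 2 list 7480, from the immunoprecipitation approaches in an order that is not given. A list named after the caller PePr held 24219 peaks, and a list of genomic peaks held the 4995 intervals common to the other lists, so it adds no independent evidence. Read depth is unknown. A gene was counted as bound where at least 1 bp of a peak fell within 500 bp of either gene end, outside or inside the gene. The strand of the genes is not in the table used, so gene ends are called lower and higher by their position on the chromosome, and starts and stops of transcription are not told apart.

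Only STN1 and TRP1 of the 10 genes had a peak in all 4 lists. CTC1, TEN1, POT1b and KU70 had a peak in the PePr list and in no other, and POT1a, KU80, TERT and TBP1 had none in any list. Replicate 1 peaks lay at 2 of the 10 genes (20.0%), against 24.6% of all protein-coding genes. Replicate 2 peaks lay at the same 2 genes (20.0%), against 41.4% of all genes. The PePr list had peaks at 6 of 10 (60.0%), against 68.7% of all genes, and the genomic list at 2 of 10 (20.0%), against 19.6% of all genes. The exact 95% intervals for the 10 genes, which cover counting error only, were wide. They ran from 2.52% to 55.6% at a count of 2 and from 26.2% to 87.8% at a count of 6. The genes were chosen with earlier results of these data known, so the intervals only describe the counts. Whether the shares differ from those of all genes was not tested.

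**Figure D1:**
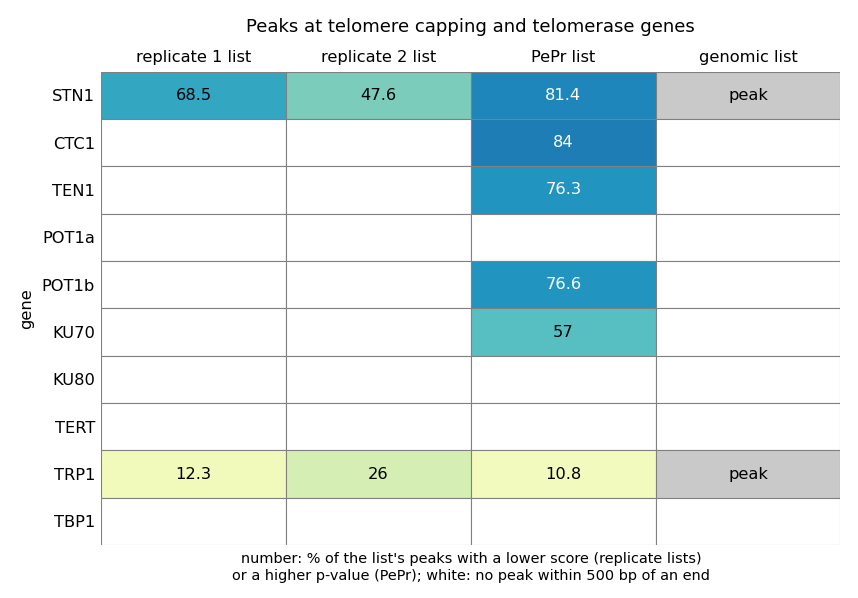
Rows are the 10 genes and columns the 4 peak lists; a filled cell is a peak within 500 bp of a gene end, and its number is the percent of that list's peaks with a lower score (replicate lists) or a higher p-value (PePr list). STN1 and TRP1 have filled cells in all columns, with 68.5 at STN1 and 12.3 at TRP1 in the replicate 1 list, and 4 rows are empty.

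STN1, on chromosome 1, encodes an OB-fold subunit of CST. Its replicate 1 peak (chr1:2186575-2189070) was 2496 bp wide and had a score of 2914, higher than 68.5% of the peaks of that list. The replicate 2 peak (chr1:2186930-2188929) was 2000 bp wide, lay wholly inside the replicate 1 peak and had a score of 524, higher than 47.6% of the peaks of its list. The scale of these scores, which come from the authors, is unstated, so they are compared within a list only. Both peaks covered the whole gene, which at 958 bp is the shortest of the 10.

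The PePr peak at STN1 was 850 bp wide (chr1:2187221-2188070), with a p-value of 1.89e-14 and an adjusted p-value of 6.60e-13 in the authors' deposited table. A higher p-value was listed for 81.4% of the PePr peaks. The same interval stood in the genomic list, with its centre 130 bp outside the lower end of STN1 and 295 bp of it inside the gene. No other protein-coding gene had an end within 500 bp of that interval. The wider replicate peaks also reached the window of AT1G07120, the neighbour on the lower side, 1148 bp away from STN1, although the nearest gene end to the centre of each was that of STN1.

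TRP1, on chromosome 5, encodes a protein with a Myb-type domain that binds telomeric repeats. Its replicate 1 peak (chr5:23964692-23968647) was 3956 bp wide and had a score of 829, with only 12.3% of that list's peaks scoring lower; the lowest score in the list was 664. The replicate 2 peak (chr5:23965853-23968624), 2772 bp wide, lay wholly inside it and had a score of 228, higher than 26.0% of its list. The intervals of TRP1 therefore ranked low in the same lists in which those of STN1 ranked near or above the middle.

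In the PePr list TRP1 had the least significant of the 6 peaks. It was 340 bp wide (chr5:23967111-23967450), the narrowest width in that list, with a p-value of 3.19e-06 and an adjusted p-value of 1.78e-05 in the authors' deposited table, and 10.8% of the PePr peaks had a higher p-value. Its centre lay 64 bp inside the lower end of the gene, and the genomic list held the same interval. A second PePr and genomic interval of 340 bp (chr5:23967791-23968130, PePr p-value 2.63e-07 in the authors' deposited table) began 574 bp inside the gene, past the window. Both narrow intervals fell within the wide replicate peaks. The replicate 1 peak also reached ORP3C (AT5G59420), whose gene is 2342 bp from TRP1.

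**Figure D2:**
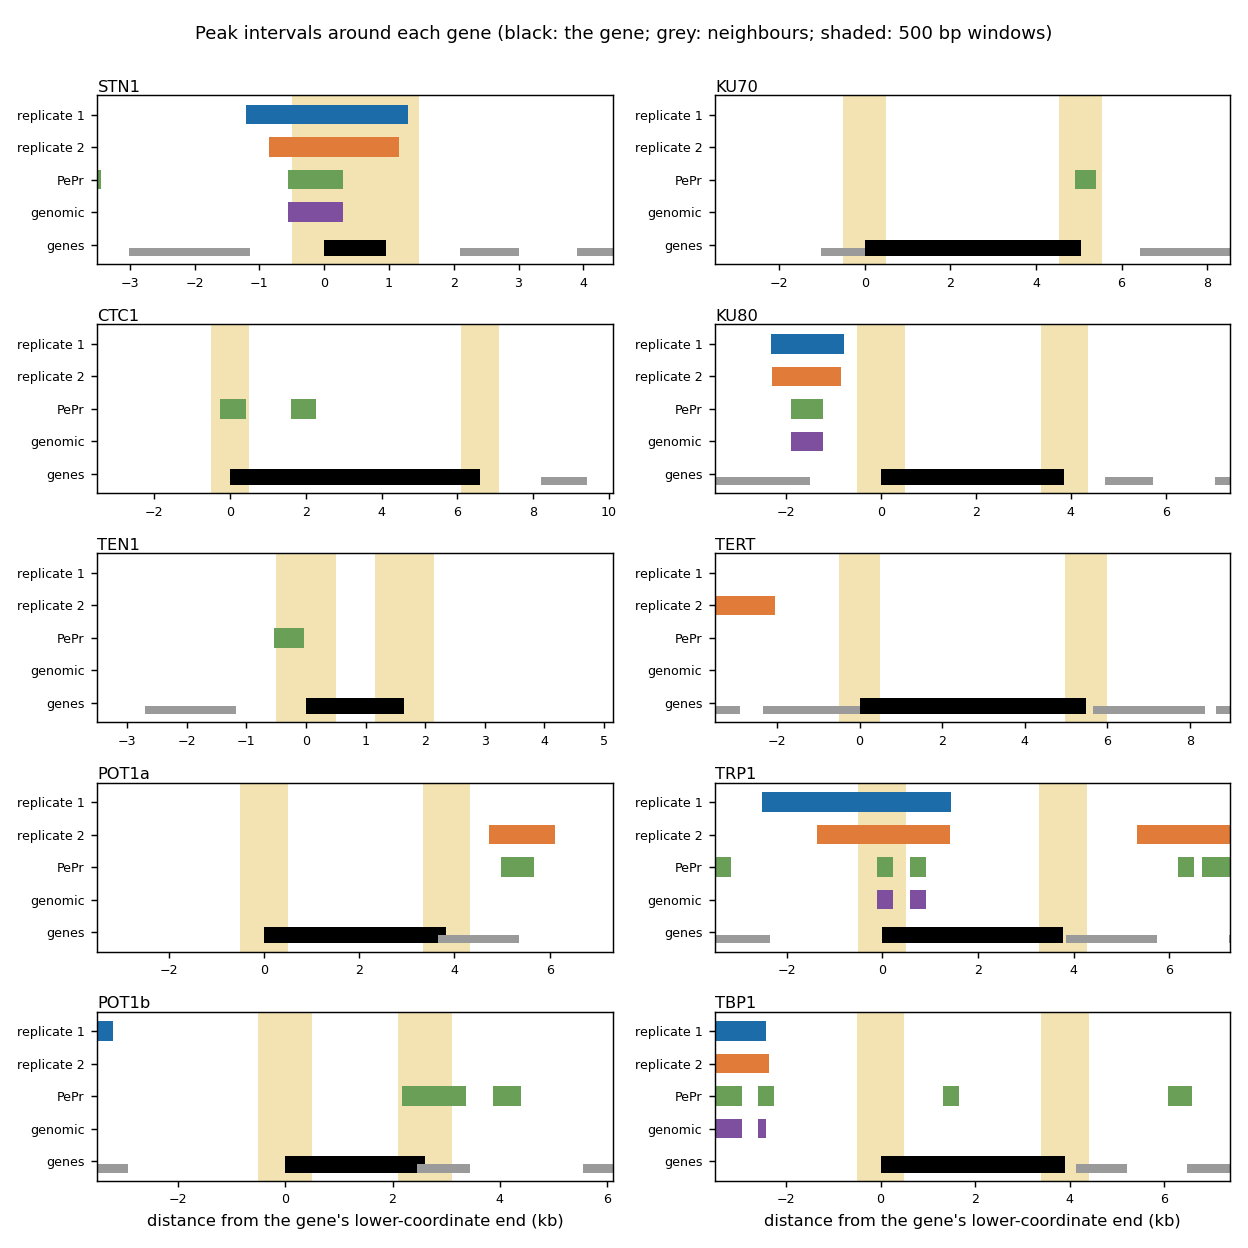
Each panel shows 1 gene (black), its neighbours (grey), the 500 bp windows at its ends (shaded) and the intervals of the 4 lists, against distance in kb from the lower-coordinate end of the gene. The STN1 and TRP1 windows hold intervals of all lists, whereas the replicate 1 interval nearest to KU80 ends 771 bp short of that gene.

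The other CST subunits had peaks in the PePr list alone. CTC1 encodes the large subunit of the complex and is the longest of the 10 genes, at 6606 bp. Its PePr peak (chr4:6116431-6117110) was 680 bp wide and centred 72 bp inside the lower end. Its p-value of 2.49e-15 in the authors' deposited table was the lowest at any of the 10 genes, lower than that at STN1, and 84.0% of the PePr peaks had a higher one. A further PePr peak of 680 bp (chr4:6118301-6118980, p-value 1.80e-12 in the authors' deposited table) lay inside the gene, 1602 bp from the lower end.

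No replicate list peak was near CTC1. The nearest in the replicate 1 list was 68109 bp away and the nearest in the replicate 2 list 49732 bp away. Of all genes without a peak in these lists, 95.5% and 96.5% had a nearer one. The gene thus combined the lowest PePr p-value of the set with a stretch of chromosome 4 that the replicate lists left empty.

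TEN1, the remaining subunit of CST, had a PePr peak of 510 bp (chr1:21063681-21064190) that ended 33 bp short of its lower end and did not touch the gene. The p-value was 5.04e-13 in the authors' deposited table, and 76.3% of the PePr peaks had a higher one. The nearest replicate 1 peak was 8628 bp and the nearest replicate 2 peak 8654 bp from the gene. Both lay at AT1G56290, on the higher side of TEN1. Of the 3 CST genes, 3 had a PePr peak, against 68.7% of all genes, and 1, STN1, had a peak in the replicate 1 and replicate 2 lists, against 24.6% and 41.4% of all genes. Counts over 3 genes do not set CST apart from these shares.

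The POT1 proteins are relatives of the vertebrate protein that covers single-stranded telomeric DNA; in Arabidopsis POT1a works with telomerase. POT1b had a PePr peak of 1190 bp at its higher end (chr5:1930521-1931710, p-value 4.17e-13 in the authors' deposited table). A higher p-value was listed for 76.6% of the PePr peaks. The neighbour NHL3 overlaps that end of POT1b and had the same peak within its window, so the peak cannot be given to either gene, although its centre was nearest to the end of POT1b, at 164 bp. The nearest replicate 1 peak was 3209 bp and the nearest replicate 2 peak 5759 bp from POT1b, with LOG7 as the gene of nearest end.

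POT1a had no peak within 500 bp of an end in any list. A replicate 2 peak (chr2:1895400-1896804, score 446, higher than 43.2% of its list) began 886 bp beyond its higher end. A PePr peak of 680 bp lay within that interval (chr2:1895671-1896350, p-value 4.28e-11 in the authors' deposited table), 1157 bp from POT1a. Both peaks were centred on an end of AT2G05220, which overlaps POT1a, at 52 and 40 bp from it. In the replicate 1 list the nearest peak was 185351 bp away, farther than for 98.4% of all genes without one.

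KU70 and KU80 encode the Ku heterodimer, which binds broken DNA ends and acts at telomeres. KU70 had a PePr peak of 510 bp at its higher end (chr1:5805671-5806180), centred 114 bp outside the gene. Its p-value of 9.11e-10 in the authors' deposited table stood near the median of that list, 5.53e-09, with 57.0% of the peaks higher. The nearest replicate 1 and replicate 2 peaks were 5362 and 5395 bp away, on the other side of the gene.

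KU80 had no peak within the windows, but peaks of all 4 lists lay a little beyond its lower end. The replicate 1 peak (chr1:17721067-17722611, score 937) was 771 bp away and the replicate 2 peak (chr1:17721083-17722540, score 1108) 842 bp away. The PePr and genomic interval (chr1:17721481-17722160) was 1222 bp away, with a p-value of 2.62e-09 in the authors' deposited table. The centres of these intervals were 52 to 80 bp from an end of AT1G48040, the neighbour on that side. Of all genes without a replicate 1 peak, 2.09% had one nearer than KU80 did, so the gene lay just outside the rule.

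TERT, the gene of the catalytic subunit of telomerase, had no peak in any list within 500 bp of its ends. Its neighbours are close: BPA1 overlaps its lower end and AT5G16860 starts 176 bp beyond the higher end, so the windows of TERT also cover ends of these genes. The nearest replicate 2 peak (chr5:5534605-5536124) was 2056 bp away at SYP21, and its score of 89.4 was close to the lowest in that list, 87.6. The nearest replicate 1 peak was 27834 bp away, at TOZ. The nearest PePr peak was 5144 bp away, and 79.2% of all genes without a PePr peak had a nearer one, the largest such share among the 4 genes that lacked one.

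TBP1 encodes another Myb-type protein that binds telomeric repeats, and its loss is known to lengthen telomeres. It had no peak at its ends. A PePr peak of 340 bp (chr5:4462161-4462500, p-value 2.58e-06 in the authors' deposited table) lay inside the gene, 1321 bp from the lower end, and 12.6% of the PePr peaks had a higher p-value. The nearest replicate 1 peak (chr5:4456745-4458417, score 2343) was 2423 bp away and the nearest replicate 2 peak (chr5:4456848-4458473, score 702) 2367 bp away, both with AT5G13810 as the gene with the nearest end. TRP1 and TBP1 thus differed in whether a peak lay within 500 bp of a gene end. Both had a PePr peak that overlapped the gene, as did 61.0% of all genes.

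**Figure D3:**
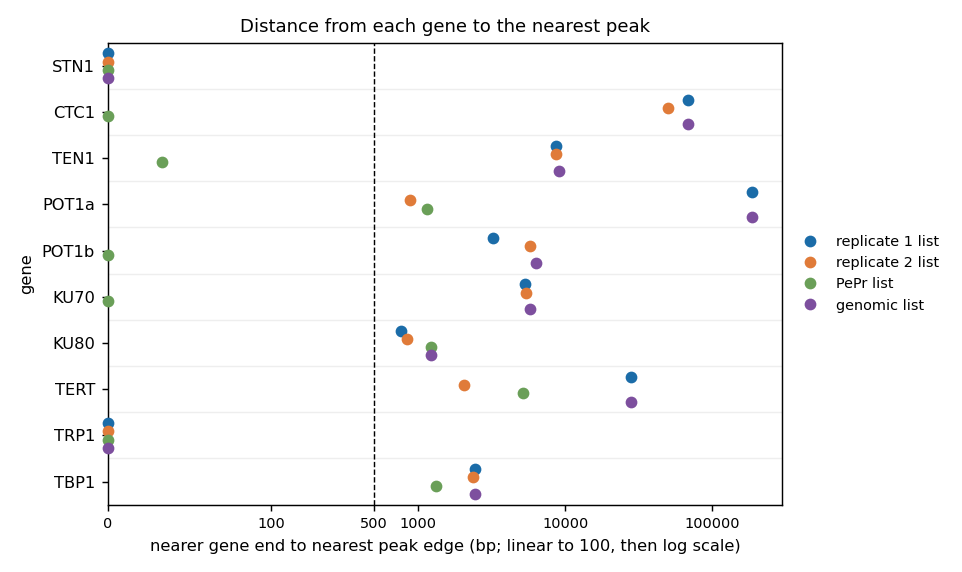
Points give, for each gene and list, the distance in bp from the nearer gene end to the nearest peak edge, on an axis that is linear to 100 bp and logarithmic beyond; the dashed line marks 500 bp. The points of STN1 and TRP1 lie at 0 in all lists, those of KU80 just past the line at 771 to 1222 bp, and CTC1 runs from 0 bp in the PePr list to 68439 bp in the genomic list.

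For the 8 genes without a replicate 1 peak the median distance to the nearest was 6995 bp, against 9554 bp for all genes without one. In the replicate 2 list it was 3881 bp for 8 genes, against 4942 bp, and in the PePr list 1272 bp for 4 genes, against 2110 bp. In these 3 lists the median of the telomere genes lay between the 25th and 75th percentiles of all genes without a peak, which were 4036 and 20477 bp in the replicate 1 list, 2238 and 10422 bp in the replicate 2 list, and 1087 and 4384 bp in the PePr list. The genes ranged widely about those medians, with KU80 nearest to a replicate 1 peak and POT1a farthest from one.

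The low PePr p-values at CTC1, TEN1 and POT1b were set against the replicate lists. Of all 24219 PePr peaks, 57.4% overlapped neither a replicate 1 nor a replicate 2 peak. Among the 3865 PePr peaks with a p-value as low as that at CTC1 or lower, 20.8% overlapped neither, and 53.5% overlapped both. Among the 5740 peaks at or below the p-value of TEN1 the shares were 27.4% and 46.0%. PePr peaks at or below the p-value of CTC1 that were missing from both replicate lists, as was the one at CTC1, numbered 802. For TRP1 the case was the other way round, since replicate peaks of both lists lay over a PePr peak of high p-value. Of the 21611 PePr peaks at or below the p-value at TRP1, 22.2% overlapped peaks of both replicate lists, against 20.6% of all PePr peaks. Those 21611 are most of the list, so their share does not describe the peaks of higher p-value.

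The pattern over the 4 lists was shared with many genes. A peak in all 4 lists, as at STN1 and TRP1, was found at 5392 genes (19.6% of all), and a peak in the PePr list alone, as at CTC1, TEN1, POT1b and KU70, at 8059 (29.4%). No peak at all, as at POT1a, KU80, TERT and TBP1, was the pattern of 7386 genes (26.9%). The pattern of replicate 2 and PePr without replicate 1, which held 4508 genes (16.4%), had none of the 10. Both replicate lists thus had the same count at these genes, although the replicate 2 list reached more genes overall.

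The 10 genes had a median length of 3846 bp, against 2078 bp for all genes. STN1 (958 bp) and TEN1 (1653 bp) were shorter than that median of all genes. Among the 25% of all genes that were longest, 26.7% had a replicate 1 peak, 43.5% a replicate 2 peak, 75.7% a PePr peak and 20.8% a genomic list peak. Among the shortest 25%, where STN1 belongs, the shares in the same order of lists were 19.0%, 33.1%, 53.4% and 15.1%. The smaller of the gaps to the neighbours on either side had a median of 148 bp in the 10 genes, against 200.0 bp in all genes.

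**Figure D4:**
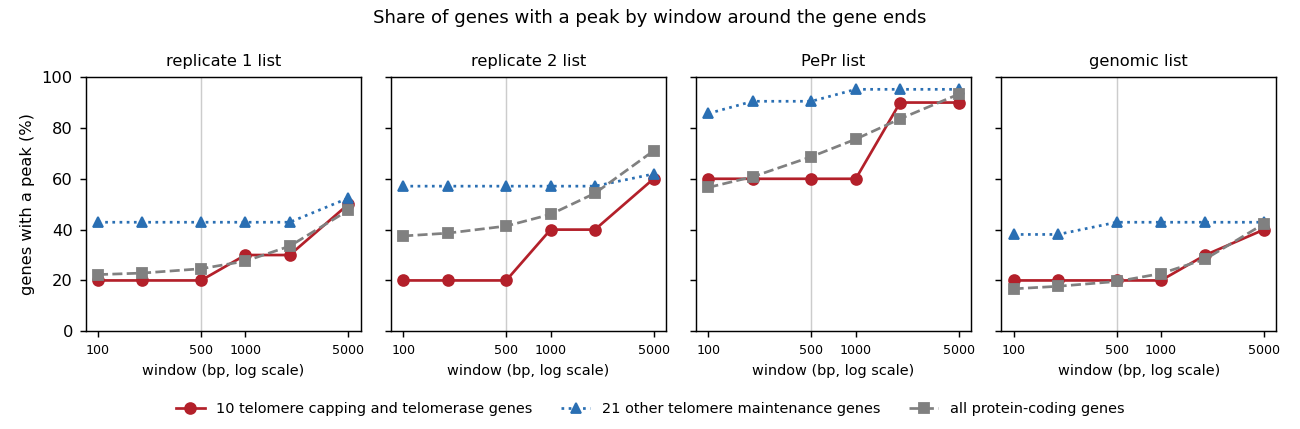
Each panel shows, for 1 list, the percent of genes with a peak against the window around the gene ends in bp (log scale), for the 10 telomere capping and telomerase genes, 21 other telomere maintenance genes and all protein-coding genes. At 500 bp (vertical line) the 10 genes stand at 20.0%, 20.0%, 60.0% and 20.0% from left to right, and the points of the 21 other genes stand higher, at 42.9% to 90.5%.

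With the window narrowed to 100 bp the same genes had a peak in every list. Widening it to 1000 bp added KU80 in the replicate 1 list, for 3 of 10 genes (30.0%), against 27.6% of all genes. It added KU80 and POT1a in the replicate 2 list, which then had 4 of 10 genes (40.0%), against 46.0% of all genes. At 2000 bp the PePr list reached 9 of 10 (90.0%), against 83.6% of all genes, and TERT was the gene left. These wider windows take in the peaks at AT1G48040 and AT2G05220 described above.

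The set was compared with 21 other genes of telomere maintenance, a list drawn up with earlier results of these data known. Of the 21, 9 had a replicate 1 peak (42.9%), 12 a replicate 2 peak (57.1%), 19 a PePr peak (90.5%) and 9 a genomic list peak (42.9%), beside the same shares of all genes as above. The difference between the lists of genes was not tested. The 9 with a peak in all 4 lists, like STN1 and TRP1, were TRFL3, TRFL4, CBF5, RIN1, ICU2, NBS1, XRCC4, AT5G67630 and AT1G79950. For AT5G67630 and AT1G79950 the gene table has only the locus tag as symbol. No role is given for them here, and their place among the 21 rests on the list alone.

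Relatives of TRP1 and TBP1 in the TRFL family, proteins with a Myb-type domain like that of vertebrate telomere repeat factors, had a genomic list peak at 2 of 6 genes, against 19.6% of all genes. At TRFL3 the genomic interval (chr1:6002531-6003380) was shared with DRG1, whose end was nearer to its centre, and the PePr p-value of that interval was 5.52e-28 in the authors' deposited table. At TRFL4 the genomic interval (chr3:19926551-19928250) was nearer to RBL4 and did not touch TRFL4. TRFL2 and TRFL9 had peaks in the replicate 2 and PePr lists, TRFL6 in the PePr list and TRFL1 in none. At TRFL9 the replicate 2 peak (chr3:3984935-3986418) lay at the higher end and the PePr peak (chr3:3981911-3982250) at the lower end, without overlap. These peaks ranked above only 8.74% and 8.54% of their lists. Of TRP1, TBP1 and the 6 TRFL genes listed here, only TRP1, TRFL3 and TRFL4 had a genomic interval within 500 bp of an end. Among these, the interval of TRP1 was shared with no neighbour.

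CBF5 and RIN1 of telomerase assembly, and ICU2 of the strand fill-in that CST assists, had peaks in all 4 lists, as did 19.6% of all genes. CBF5, also named NAP57, encodes dyskerin, which binds the RNA of telomerase and of small nucleolar particles. Its peak at the higher end had a score of 3100 in both replicate lists, a value that 28.3% of the replicate 1 and 11.7% of the replicate 2 peaks share, and a PePr p-value of 1.78e-24 in the authors' deposited table. The neighbour AT3G57160 was within reach of the same peak. RIN1 encodes a RuvB-like ATPase. Its PePr p-value of 7.22e-41 in the authors' deposited table was lower than that of 99.6% of the list, while its replicate 1 score of 678 was above only 1.33% of that list, and the interval was nearer to AT5G22320. ICU2, the catalytic subunit of DNA polymerase alpha, had a score of 3100 in both replicate lists, at an interval nearer to AT5G67090.

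The DNA damage response and end joining act on unprotected telomeres. All 5 damage response genes listed (ATM, ATR, MRE11, RAD50 and NBS1) had a PePr peak, against 68.7% of all genes. All 5 belong to the group of longest genes described above, of which 75.7% had a PePr peak. None of their peaks reached the middle of that list by p-value. The share of PePr peaks with a higher one ran from 4.41% for RAD50 to 49.0% for NBS1. The RAD50 peak was nearer to GSL03 and did not touch RAD50. NBS1, 1 of the 5, had a genomic list peak, against 19.6% of all genes. The NBS1 interval (chr3:575791-576300) was nearer to AT3G02677 and ended outside NBS1. XRCC4, the partner of DNA ligase IV, had a genomic interval (chr3:8220691-8221540) wholly inside the gene at its lower end, with a PePr p-value of 3.15e-28 in the authors' deposited table. LIG4, the ligase itself, had a PePr peak alone, with a p-value of 7.89e-06 in the authors' deposited table. ERCC1 and UVH1, subunits of a DNA repair endonuclease, also had PePr peaks alone. TAC1, an activator of telomerase expression, had no peak within 500 bp of an end in any list, as was the case for TERT. The nearest PePr peak was 634 bp from TAC1, just outside the rule, and 5144 bp from TERT.

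**Figure D5:**
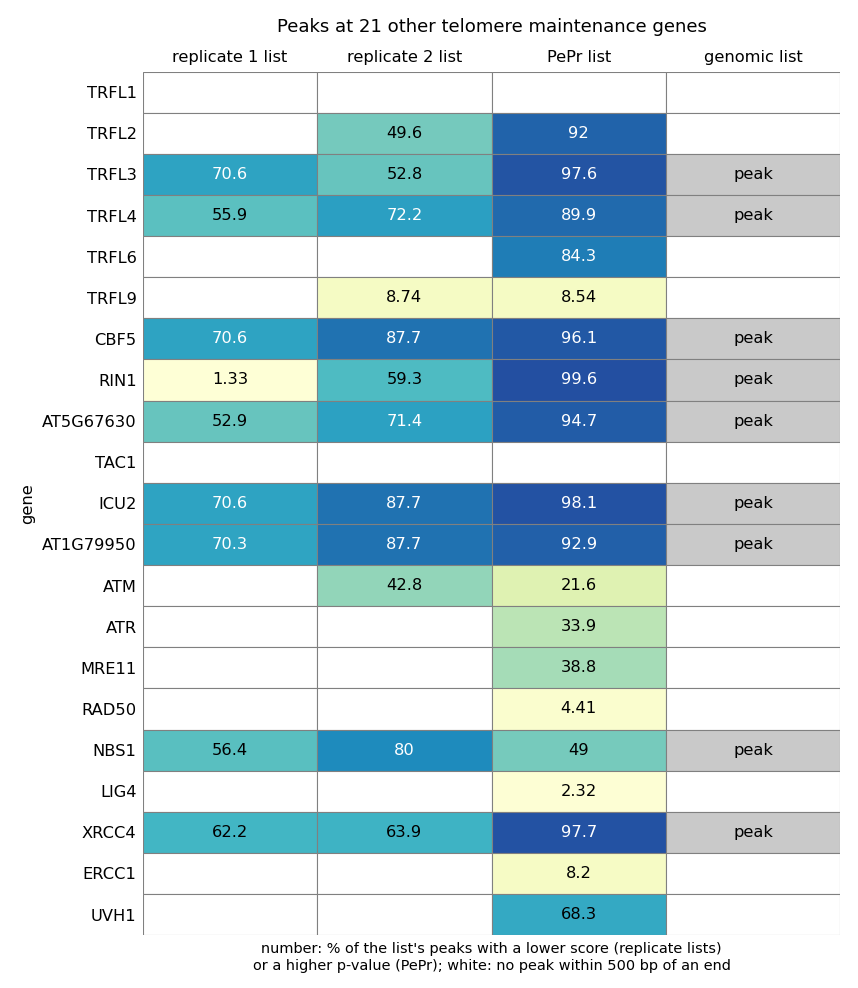
Rows are 21 other telomere maintenance genes and columns the 4 peak lists; a filled cell is a peak within 500 bp of a gene end, and its number is the percent of that list's peaks with a lower score or, in the PePr list, a higher p-value, for the highest-ranked peak at the gene. The rows of CBF5 and ICU2 hold 87.7 in the replicate 2 list and 96.1 and 98.1 in the PePr list, whereas TRFL1 and TAC1 are empty.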

How the data were processed

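Chromatin immunoprecipitation was sequenced in 4 libraries, 1 per group. Per the submitters' processing notes, Bowtie2 version 2.2.2, SAMtools, bedtools and MACS were used, with the builds TAIR9 and TAIR10; roles, thresholds, control libraries and pooling are unstated. The lists have no header. The authors deposited a score per peak in the replicate lists and a p-value and adjusted p-value per peak in the PePr list.

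Positions are those of the deposited lists, counted from 1. Gene names and ends came from a RefSeq table of the release TAIR10.1, none of whose coordinates are printed; distances assume the same numbering. Strand and sequence were not used here, so the planned counts at the 5′ end and of telomeric motifs were not made. Peaks were placed with Python 3.11.15, pandas 2.3.3 and numpy 2.4.6, checked on simulated data. Exact (Clopper-Pearson) 95% intervals came from scipy 1.17.1. They are computed over genes and cover counting error only. Neighbouring genes can share a peak, and reads amplified by PCR are not independent molecules. The intervals reflect neither.

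The 10 genes and the 21 others were chosen with earlier results of these data known, so counts are descriptions beside the share of all genes, without a test. The rule named all 10 genes, listed genes with a genomic list peak and neighbours that share a peak; other genes were named after their values were seen. For each list 7 alternatives were tried.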

Additional observations from a re-analysis of the deposited data

How the results depend on the processing

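The counts of the 10 genes stayed within 1.5 times of those reported in 23 of 28 combinations of list and alternative. Those of the 21 other genes, whose alternatives were chosen after seeing the data, did so in 24 of 28. Counting only a peak centre within 500 bp left 1 of the 10 genes in the replicate 1 list, STN1, since the centre of the TRP1 peak is 548 bp from the gene. A window of 1000 bp gave 4 of 10 in the replicate 2 list. With the 50% of peaks of better value, the count of the 10 genes was 1 with replicate 1 peaks (against 13.1% of all genes). It was 0 with replicate 2 peaks (against 23.5% of all genes) and 0 with genomic list peaks (against 10.6%). Of the 21 others, 8 kept a replicate 1 peak, 9 a replicate 2 peak and 8 a genomic list peak, beside those same shares. With PePr peaks the 21 others had 11 (against 46.9% of all genes). The genomic list holds no score or p-value. Its peaks were ranked by the mean score rank of the replicate peaks they overlap, so its count is not separate from those of the replicate lists. Where a peak counted for the gene of nearest end alone, the 21 others had 4 genes with replicate 1, 7 with replicate 2 and 4 with genomic list peaks, against 13.5%, 25% and 13.5% of all genes, shares that are also lower than those reported, while STN1 and TRP1 kept theirs. In the PePr list the count of the 10 genes was 5 or 6 in all alternatives. With peaks that overlap the gene it was 6, against 61.0% of all genes, with TBP1 in and TEN1 out. No paired analysis was possible because each group had 1 library and no test between groups was made. Depth is unknown, so a gene without a peak may lie below the limit of detection.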
